A study of Mus musculus with 22 samples.

Results

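Translation efficiency (TE) compares how much of a transcript is bound by ribosomes with how much of it the cell holds. The measurement described here is its difference between genotypes, ΔTE, in Purkinje cells (PCs), the GABAergic output neurons of the cerebellar cortex, with and without Tsc1. For each locus, ΔTE was the TRAP difference (mutant minus control) minus the difference in total RNA of sorted cells (mutant minus control), both as means of log2(value + 1). A locus was kept when its mean log2 value was at least 5 over the sorted libraries and at least 2 over the TRAP libraries, which left 9374 of 66494 loci. The first filter alone kept 16455 loci and the second alone 9658.

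TSC1 is a subunit of the complex that restrains mTORC1, a kinase that promotes ribosome production and the initiation of translation. A rise in ΔTE can come from more ribosome-bound RNA at a constant amount of total RNA, or from less total RNA at a constant amount of ribosome-bound RNA. The ratio therefore does not by itself say that more of a transcript was bound, and every locus below is described by both of its terms.

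All samples are labelled with the strain background C57BL/6. Sorted cells came from mice with Tsc1 fl/fl (mutants) or Tsc1 +/+ (controls) that carried L7GFP, with L7Cre to delete Tsc1. The L7 (Pcp2) promoter drives both transgenes in PCs. GFP-positive cells without propidium iodide were collected at P21 or P42, with no age given per library. Ribosome-bound RNA came by TRAP from whole cerebellum of mice in which L7Cre switches on the tagged ribosomal protein RPL10A-EGFP from the Rosa26fsTRAP allele, again with Tsc1 fl/fl or Tsc1 +/+. The 16 of 22 samples without rapamycin were used, 5 sorted libraries and 3 TRAP libraries of each genotype. CC in the labels was read as mutant and WW as control from the study's usage, and Tsc1 itself was not analysed here.

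The libraries differed in ways that touch ΔTE. Sorted libraries held 43.3 to 86.3 M estimated fragments and TRAP libraries 2.68 to 6.38 M. Mutants 61, 74 and 103 carry the library code MS2723, controls 45, 48 and 144b the code MS2872, and mutants 167 and 191 and controls 144a and 176 the code MS3005. Controls 144a and 144b share a number, so the 5 sorted control libraries carry 4 distinct numbers, and n counts libraries throughout. All 6 TRAP libraries carry 1 code, JD4866-2. Of the sorted codes, only MS3005 holds both genotypes, so outside it the code and the genotype cannot be told apart, and values within it are given beside the others. TRAP mutant 3 stood apart, with 40.5% of its fragments on its 10 highest loci against 62.2% to 70.8% in the other TRAP libraries. By the study's methods each TRAP library came from the cerebellum of 1 animal. Of the 9374 loci, 912 have a symbol in the study's lists, most of which were chosen on ΔTE or expression in these same samples. The 873 of these whose assembled transcript matches the gene or shares its splice junctions are called by the gene's name.

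Over all 9374 loci, ΔTE had a median of 0.19 on the log2 scale, and 5665 loci (60.4%) were above 0. The median RNA term was -0.03 and the median TRAP term 0.08. The TRAP term spread more widely over the loci (SD 0.79) than the RNA term (SD 0.58). The correlation of the terms over the loci was 0.0086, a description over loci that share their libraries. Within MS3005, the median ΔTE was 0.11.

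A term was taken as the driver of a locus when it made up at least 70% of ΔTE, and both terms were taken when each made up 30% to 70%. By this rule, 2883 of the 5665 loci with a higher ΔTE were driven by TRAP, 1630 by total RNA and 1152 by both. Among the 3709 loci with a lower ΔTE, TRAP drove 1916, total RNA 940 and both 853. TRAP was thus the more frequent driver by this rule in both directions. The rule picks the larger term, and the TRAP term spread more widely over the loci (SD 0.79 against 0.58). TRAP libraries were also shallower, at 2.68 to 6.38 M estimated fragments against 43.3 to 86.3 M in sorted libraries. Among loci with a higher ΔTE, TRAP-driven ones had a median of 21 TRAP fragments and RNA-driven ones 57.85. Among those with a lower ΔTE, the medians were 27.83 and 20.89. The part of noise in these counts was not tested.

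**Figure D1:**
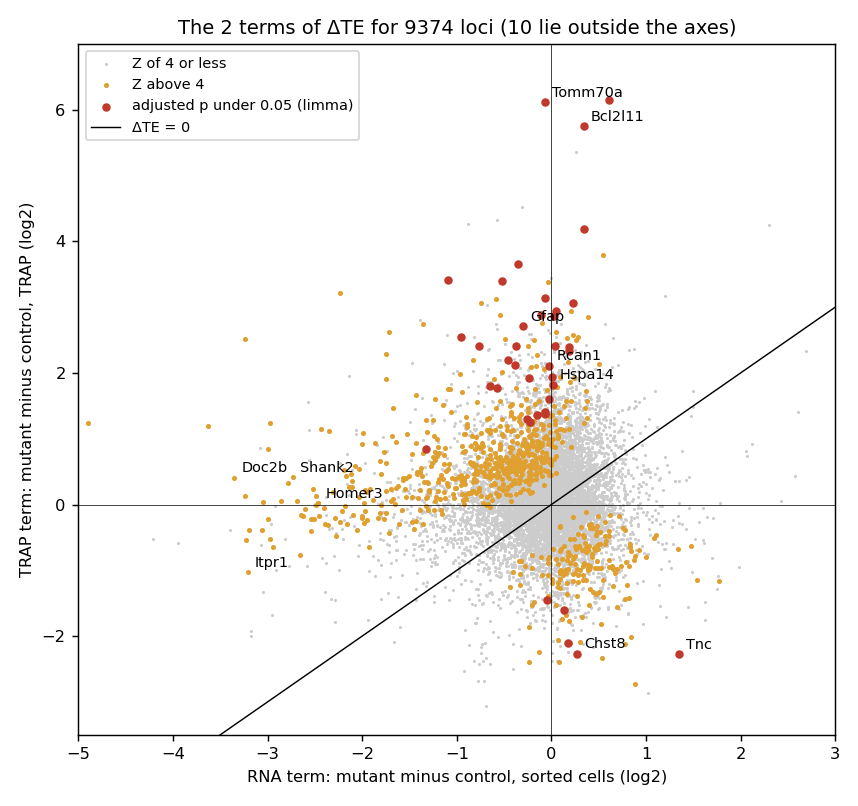
Each point is one of 9374 loci, with the RNA term on the horizontal axis and the TRAP term on the vertical axis (both mutant minus control, log2); points above the diagonal have a higher ΔTE. Loci past the adjusted p lie mostly straight above or below the centre, while Itpr1, Doc2b, Shank2 and Homer3 lie to the left, at TRAP terms between -1.03 and 0.42.

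ΔTE itself was tested with the limma interaction of genotype and assay, fitted over all 9374 loci with Benjamini-Hochberg adjustment. It called 41 loci (0.437% of those tested). ΔTE rose at 36 of them (0.384%) and fell at 5 (0.0533%). All 41 have a symbol, which makes 4.5% of the 912 loci with a symbol. An unadjusted limma p under 0.05 was reached by 14.5% of all loci and 74.8% of those with a symbol, and 76.1% of the latter had a ΔTE above 0. These shares are the background for the gene lists below, most of whose members were named for their ΔTE. TRAP drove 35 of the 36 rises and 4 of the 5 falls, both terms drove the others (Ankrd45 and Tnc), and total RNA alone drove none. In TRAP, the groups of 3 and 3 did not overlap at any of the 41, as at 14.6% of all loci. In sorted cells, the groups of 5 and 5 were separate at 1 of the 41 (Ankrd45), against 2.53% of all loci. The 36 rises had a median ΔTE of 2.72, made of a median RNA term of -0.13 and a median TRAP term of 2.41, and their median within MS3005 was 2.61. At 19 of the 36 rises the TRAP control mean, and at 3 of the 5 falls the TRAP mutant mean, was under the TRAP filter of 2. These loci were tested only because the other group was high, so they had to differ. At 4 of the rises every TRAP control was at 0 (under 0.5 estimated fragments), and with those set to 3 fragments per library the median was 2.58. MS3005 limits only the sorted libraries and leaves the TRAP term as it is, so ΔTE of TRAP-driven loci could move little there.

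The number of calls depended on the fit. Only Tomm70a, Bcl2l11 and the loci at Tbc1d23 and E030025P04Rik were called in every alternative fit that tested them. Each had a TRAP control mean under the TRAP filter of 2, so it entered the test only through its mutants. Their calls over the fits are therefore no support for a rise. Some others were called in most fits, such as Gm2115 in 24 of 25 and Gfap, Parvb, Hspa14 and Rcan1 in 25 of 29. Gm2115, too, was tested only through its mutants. Others were called in few, down to 3 of 24 for Zfp235 and 5 of 28 for Cc2d1b and Zfp704 among the rises. Among the falls the lowest was 6 of 28, for Chst8. The number was 8 when each assay had its own variance factor, 6 with the MS3005 sorted libraries only, 10 with libraries scaled to equal totals and 28 (15 higher and 13 lower) without TRAP mutant 3, of which 18 were among the 41. It was 284 (222 higher and 62 lower) without TRAP control 2, 101 without TRAP control 3, 19 without TRAP mutant 1 and 11, all higher, without TRAP mutant 2. Leaving out 1 sorted library left 13 to 34 calls. With controls 144a and 144b averaged into 1 sample there were 13 calls, all higher, so that none of the falls was called. The rises that lost their call there included Ankrd45, Msrb1, Paip2b and Pik3cb. Of the 41, 22 had a mean of under 10 estimated fragments per TRAP control library.

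**Figure D2:**
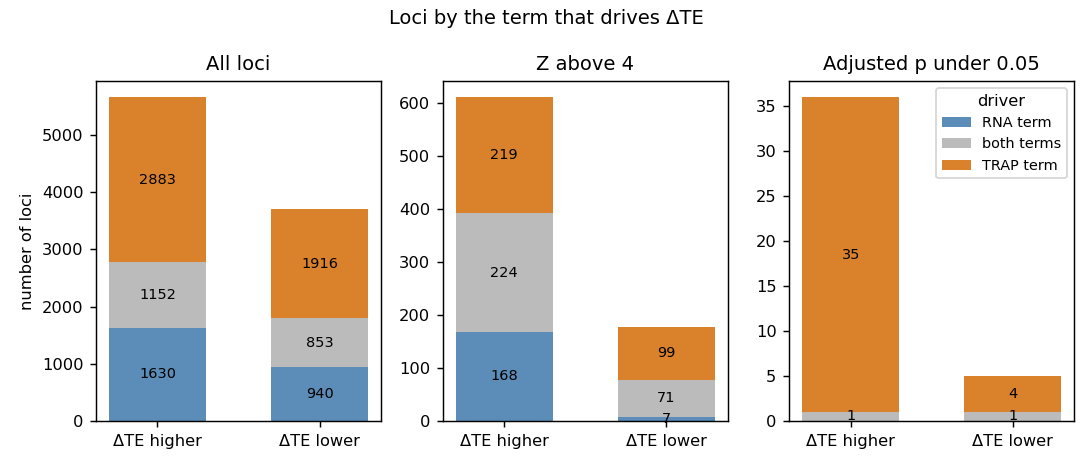
Bars count the loci with a higher or lower ΔTE by the term that drives it, for all 9374 loci, for the 788 with a Z-score above 4 and for the 41 past the adjusted p; each panel has its own axis from 0. The RNA term takes 168 of the 611 increases past the Z-score and none of the 36 rises past the adjusted p.

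The study recalculated ΔTE with values left out and summarised the results for each gene as a Z-score. Here that score was taken as the absolute ΔTE divided by the SD of the recalculations. All 225 ways to leave out 1 library per group were used, in place of the study's own number of recalculations. It is not a test with a known error rate. A Z-score above 4 was reached by 788 loci (8.41%), including all 41 calls. ΔTE was higher at 611 (6.52%) and lower at 177 (1.89%). Of the 912 loci with a symbol, 727 (79.7%) were past it, so a high share among named genes is fixed by how they were named. Total RNA drove 168 of the 611 increases (27.5%), TRAP 219 and both 224. The RNA-driven share was 1.35% with the MS3005 sorted libraries only. It was 15.1% to 18.9% without 1 of the MS2723 mutants (lowest without mutant 61) and 19.1% without TRAP control 2. The number past the Z-score was 119 with libraries scaled to equal totals and 225 with MS3005 only. Among the 177 decreases, total RNA drove only 7, TRAP 99 and both 71.

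The RNA-driven and TRAP-driven increases are described here over all sorted libraries and within MS3005. Restriction to MS3005 changes only the RNA term. The TRAP-driven set could therefore move little and the RNA-driven set could move much, by how they were chosen. The contrast between the sets is no separate result. The 168 RNA-driven loci had a median RNA term of -1.55 over all sorted libraries, -2.28 in the libraries outside MS3005 and -0.43 within MS3005. Their median ΔTE was 1.68 over all libraries and 0.49 within MS3005, where 12.5% of them had an absolute ΔTE above 1. Their median TRAP term was 0.13, and 53 of the 168 had a TRAP term below 0. The 219 TRAP-driven loci had a median ΔTE of 1.30 over all libraries and 1.16 within MS3005, where 58.9% were above 1 in absolute value. For the 224 loci driven by both, the median went from 1.25 to 0.73.

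Library by library, the RNA-driven set lay below the control mean by the most in the 3 MS2723 mutants, with median differences of -2.84 (mutant 103), -1.995 (mutant 61) and -1.51 (mutant 74). The MS3005 mutants 167 and 191 were at -0.56 and -0.65, while the MS3005 controls 176 and 144a were at -0.49 and 0.11. Within MS3005, the mutants lay below the controls, control 176 by a small margin. The TRAP-driven set stood at 1.24, 1.18 and 1.13 in TRAP mutants 1, 2 and 3 and between -0.08 and 0.17 in the TRAP controls. These sets were chosen on the same values, so the medians describe them and test nothing.

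**Figure D3:**
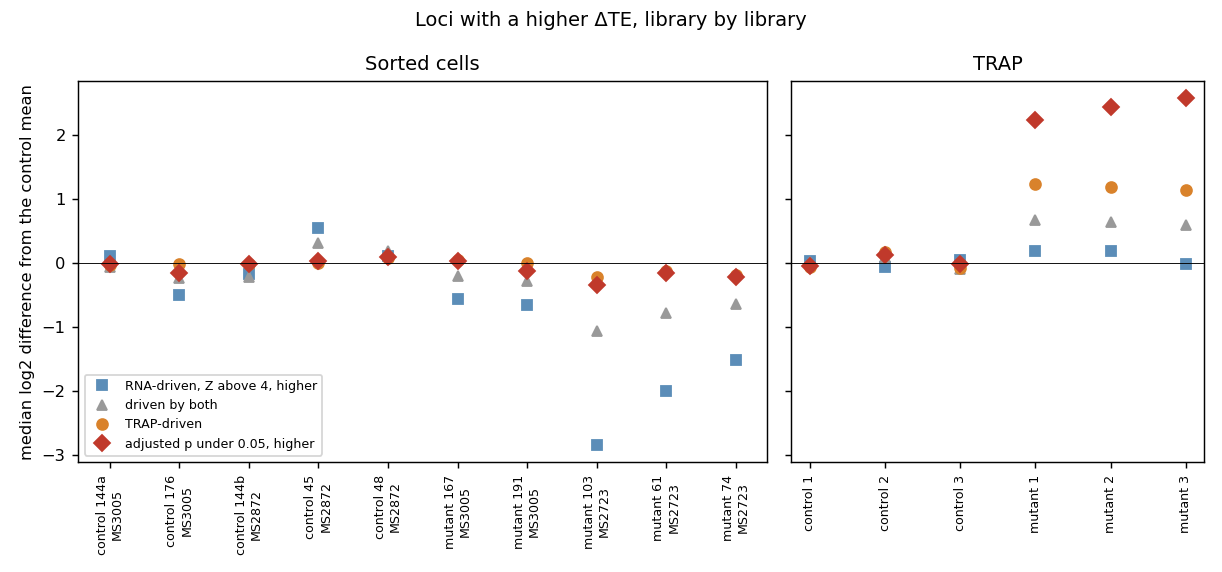
Points are medians over the loci of each set of the log2 difference from the control mean, for each of 10 sorted and 6 TRAP libraries. The RNA-driven set drops to -2.84 in sorted mutant 103 and stays between -0.65 and -0.56 in the MS3005 mutants, while the TRAP-driven set is above 1 in each TRAP mutant.

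Among the TRAP-driven rises, Tomm70a encodes a receptor of the mitochondrial outer membrane that takes up precursor proteins (chromosome 16, 57121703 to 57156705, plus strand, GRCm38). In sorted cells its log2 level was 12.33, 12.63, 12.49, 13.04 and 12.75 in controls 144a, 144b, 176, 45 and 48, and 12.31, 12.81, 12.72, 12.48 and 12.58 in mutants 103, 167, 191, 61 and 74. These groups overlapped. In TRAP it was listed at 0 in all 3 controls and at 5.59, 6.34 and 6.41 in the mutants, from 24, 53 and 277 estimated fragments. The interaction was past the threshold (limma adjusted p = 2.85e-08) and stayed so in every alternative fit that tested it. Its control mean is under the TRAP filter, so it entered the test only through the mutants, and a difference was required for it to be tested. No size is given, because a gene that every cell uses can be at 0 through a failed estimate.

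Bcl2l11 encodes BIM, a BH3-only protein that promotes apoptosis (chromosome 2, 128126038 to 128162547, plus strand). Its sorted level was 9.59 ± 0.41 (SD, n = 5) over the control libraries, and 9.93 ± 0.14 (SD, n = 5) over the mutant libraries. In TRAP the controls were at 1.43, 1.17 and 0.00, and the mutants at 7.07, 6.31 and 6.47. Every mutant was far above every control in TRAP and the sorted groups overlapped. ΔTE was 5.40 (SE 0.45, limma adjusted p = 9.00e-06), of which TRAP contributed 5.75 and total RNA, slightly higher in mutants, took 0.34 away. With 2, 2 and 0 fragments in the controls, the size depends on the pseudocount, and ΔTE was 2.95 with a pseudocount of 10. It too entered the test only through its mutant libraries.

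Srxn1 encodes sulfiredoxin, which repairs oxidised peroxiredoxins (chromosome 2, 152105516 to 152111376, plus strand). Its TRAP level was 4.64, 5.55 and 4.32 in controls and 6.76, 7.32 and 6.99 in mutants. The highest control lay below the lowest mutant. In sorted cells it was 11.96 ± 0.39 (SD, n = 5) over the control libraries, and 11.50 ± 0.37 (SD, n = 5) over the mutant libraries. ΔTE was 2.65 (SE 0.45, limma adjusted p = 0.0181) and 2.06 within MS3005. Msrb1, which reduces oxidised methionine, also passed, with a ΔTE of 3.17 (SE 0.61, limma adjusted p = 0.0395) on a mean of 10 TRAP fragments, and entered only through its mutant libraries.

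Of 7 measured genes on the stress and immediate response list, 2 rose (Bcl2l11 and Srxn1) and none fell. Bcl2l11 was tested only through its mutant libraries, and 4.5% of loci with a symbol were called, so nothing is read from the count. The median ΔTE of the list was 2.61, against 0.19 over all loci and 1.06 over the loci with a symbol, which were mostly named for their ΔTE, and it was 2.93 within MS3005. Xbp1, a transcription factor of the unfolded protein response, was at -0.73 without a call. The median TRAP term was 1.56 and the median RNA term -0.43. Mt1, a metal-binding metallothionein, was at a ΔTE of 2.35 and Dusp1, an immediate early phosphatase, at 2.75, without passing the test. Ddit4, a stress-induced inhibitor of mTORC1 that is also on the mTOR list, was at 2.61 through both terms (RNA -1.33, TRAP 1.28, limma adjusted p of ΔTE 0.155). Its RNA term was as large within MS3005, at -1.65.

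Hspa14 encodes a ribosome-associated member of the HSP70 family (chromosome 2, 3488850 to 3512814, minus strand). In TRAP it was 5.63, 5.43 and 5.38 in controls and 7.47, 7.17 and 7.25 in mutants, on a mean of 147 fragments. In sorted cells it was 11.54 ± 0.23 (SD, n = 5) over the control libraries, and 11.55 ± 0.15 (SD, n = 5) over the mutant libraries. The TRAP groups were separate and the sorted groups coincided. ΔTE was 1.81 (SE 0.28, limma adjusted p = 0.0123), and TRAP accounted for 1.82 of it.

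Hspa14 was the 1 call among 15 measured genes of the proteasome and protein folding list, against 4.5% of loci with a symbol. The median ΔTE of that list was 0.80, below the 1.06 of loci with a symbol, from a TRAP term of 0.70 and an RNA term of -0.06, and within MS3005 it was 0.64. Proteasome subunits such as Psmd7 (ΔTE 0.85, TRAP term 0.96) and Psma6 (ΔTE 0.77, TRAP term 0.71) showed higher TRAP values at nearly equal total RNA, and neither passed the test. Hspa5, the main chaperone of the endoplasmic reticulum, and Psmg4, a proteasome assembly factor, were at -0.97 and -0.93.

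Among 24 measured genes for mitochondrial proteins, 1 rose (Tomm70a, which was tested only through its mutants), a share near the 4.5% of loci with a symbol and no result about the list. Of the 24, 19 were above 0, and TRAP drove 18 and both terms drove 6. The median ΔTE was 0.95 over all libraries, against 1.06 for loci with a symbol, and 0.45 within MS3005. Ucp2, an uncoupling protein of the inner membrane, was at 2.05 and Gdap1, a mitochondrial fission factor, at 1.89, without passing the test.

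Rcan1 encodes a regulator of the calcium-dependent phosphatase calcineurin (chromosome 16, 92391953 to 92470867, minus strand). Its TRAP level was 4.24, 4.06 and 4.70 in controls and 6.38, 6.42 and 6.54 in mutants, and its sorted level 11.80 ± 0.32 (SD, n = 5) over the control libraries, and 11.78 ± 0.29 (SD, n = 5) over the mutant libraries. The rise was in TRAP alone. ΔTE was 2.14 (SE 0.35, limma adjusted p = 0.0154) and 1.95 within MS3005.

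The windows from 250 bases before to 50 bases after annotated starts (RefSeq, GRCm38.p6) were searched on both strands for CACGTG, the E-box read by TFEB-type and other factors, TGACGTCA, the cAMP response element, and TGACNNNGC, the antioxidant response core. The motifs were chosen after the calls were known. Of 37 called genes of matching structure, 29 had at least 1 window. CACGTG was found for 5 of them, against 8.09% of all 27025 genes with a window (7.15% of the 32851 windows). TGACGTCA was found for 1, against 2.03% of genes (1.79% of windows), and TGACNNNGC for 3, Srxn1 among them, against 14.0% of genes (12.4% of windows). Rcan1 was the 1 gene with both of the first 2 motifs, in the windows of different starts, and these stretches are shown with the motif in capitals. A match is not evidence of binding.
Rcan1 upstream start, chr16:92466347-92466368, minus strand: gtgggtgtCACGTGacaaaaat
Rcan1 downstream start, chr16:92400238-92400261, minus strand: taaggtgtTGACGTCAcctctttc

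Gfap, the intermediate filament of astroglia, was also called (chromosome 11, 102887336 to 102900912, minus strand). In TRAP it was 4.17, 5.51 and 4.57 in controls and 7.81, 7.12 and 7.45 in mutants. In sorted cells it was 13.86 ± 0.57 (SD, n = 5) over the control libraries, and 13.56 ± 0.22 (SD, n = 5) over the mutant libraries. ΔTE was 3.01 (SE 0.49, limma adjusted p = 0.0154) and 2.79 within MS3005. PCs are not known for Gfap, and its level in the sorted libraries was high in both genotypes.

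Summed markers of other cell types moved with the TRAP term. The summed TRAP value of 5 astroglial markers (Gfap, Apoe, Bcan, Sox2 and Aldoc, the last also made by a subset of PCs) was 1513 to 2120 in controls and 2736 to 3397 in mutants. Aldoc carries most of this sum, with a TRAP term of 0.64. Bcan, a matrix proteoglycan, went the other way, with TRAP values of 26.4, 42.7 and 32.9 in controls and 19.6, 21.1 and 19.1 in mutants, which did not overlap. That of 7 microglial markers was 0 to 6.90 in controls and 29.7 to 58.9 in mutants, with 3 of the 7, C1qc and Ly86 among them, at 0 in all controls. All 5 vascular markers were at 0 in every control and their sum was 3.92 to 9.04 in mutants. The oligodendrocyte marker Opalin was 0 to 1.25 in controls and 1.51 to 3.92 in mutants. One fragment was worth 0.851, 0.627 and 0.557 units in TRAP controls 1, 2 and 3. In TRAP mutants 1, 2 and 3 it was worth 1.96, 1.51 and 0.303 units. The vascular and Opalin values are thus a few fragments near the floor, and nothing is read from them. In the same TRAP libraries, the sum of 12 PC markers was 11801 to 13937 in controls and 10251 to 11448 in mutants. Itpr1 carried much of this difference, at 3328, 3171 and 2563 in controls and 1481, 1503 and 1426 in mutants. The median TRAP term of the 12 markers was -0.11, and those of Pcp2, Calb1 and Homer3 were 0.04, -0.01 and 0.02. Csf1r, the receptor that maintains microglia, had a ΔTE of 2.45 (limma adjusted p = 0.187), driven by TRAP, and Apoe, the lipid carrier of astroglia, one of 1.68 (limma adjusted p = 0.192). The TRAP control mean of Csf1r was under the filter of 2, so it was measured only through its mutants and had to be higher there. The part of RNA from these other cell types in the TRAP-driven rises was not tested.

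Of 11 measured genes of translation, 1 was called, against 4.5% of loci with a symbol, and all 11 were above 0, against 60.4% of all loci and 76.1% of those with a symbol. They had a median ΔTE of 1.25 (0.81 within MS3005), close to the 1.06 of loci with a symbol. Paip2b, which binds the poly(A)-binding protein and restrains translation, was the 1 call, with TRAP levels of 4.33, 4.07 and 4.23 in controls and 5.70, 5.39 and 5.30 in mutants. Its ΔTE was 1.47 (SE 0.29, limma adjusted p = 0.0429), and the call held in 11 of 29 alternative fits. The ribosomal protein genes Rpl37, Rplp0 and Rps16 were at 0.95, 1.25 and 0.91 and the poly(A)-binding protein gene Pabpc1 at 1.32, each through lower total RNA and higher TRAP together, and none passed the test. Eef1a2, the neuronal elongation factor, was at 2.61 through an RNA term of -2.17.

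Regulators of mTOR signalling went in both directions. Of 8 measured genes, none was called by limma, against 4.5% of loci with a symbol, and 6 had an unadjusted p under 0.05. ΔTE was above 0 at 6 and below at 2, with a median of 1.01 (0.76 within MS3005). Prkab2, a subunit of the energy sensor AMPK, was at 1.62, driven by TRAP.

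Other called rises included signalling and structural genes. Pik3cb, a catalytic subunit of class I PI3K upstream of mTORC1, had a ΔTE of 1.93 (SE 0.35, limma adjusted p = 0.0302), all of it from TRAP. Parvb, a focal adhesion adaptor, was at 3.51, with a TRAP term of 2.55 and an RNA term of -0.96. Rin2 (2.50) encodes an exchange factor for Rab5, and Tbc1d20 (2.17) a GTPase-activating protein for Rab proteins. Prkra (2.14) encodes an activator of the RNA-dependent kinase PKR, Gcsh (1.56) a subunit of the mitochondrial glycine cleavage system, Rtel1 (2.85) a DNA helicase and Taf1b (2.89) a factor of RNA polymerase I. The TRAP control means of Rin2, Prkra and Taf1b were under the filter of 2, so these genes were tested only through their mutants. Over the alternative fits, ΔTE of Taf1b went from 0.89 to 5.13 and that of Rin2 from 1.05 to 3.83. Other rises of matching structure were Rnd1 (2.46), Rhobtb2 (1.48), Brcc3 (1.45), Cc2d1b (1.63), Plagl1 (2.35), Dtx4 (2.38), Tpd52l1 (3.20), Zfp235 (2.99), Rflnb (3.91), Zfp704 (4.01) and 4 loci known by clone names. Among these, Cc2d1b, Tpd52l1, Zfp235, Rflnb and Zfp704 had a TRAP control mean under the filter of 2. So did the clone-named loci Gm32391, AC166344.3 and Gm2115. A higher TRAP value in mutants was required for all of these to be tested. ΔTE of Zfp235 went from 1.03 to 5.22 over the alternative fits.

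Ankrd45, a gene of ankyrin repeats, was the 1 rise in which both terms took part. Its sorted level was 9.63, 10.09, 9.78, 10.18 and 10.07 in controls 144a, 144b, 176, 45 and 48 and 8.01, 9.26, 9.14, 8.19 and 8.52 in mutants 103, 167, 191, 61 and 74. All mutants were below all controls. Its TRAP level was 3.95, 4.41 and 4.93 in controls and 5.46, 5.16 and 5.20 in mutants. ΔTE was 2.17 (SE 0.44, limma adjusted p = 0.0429) and 1.35 within MS3005.

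**Figure D4:**
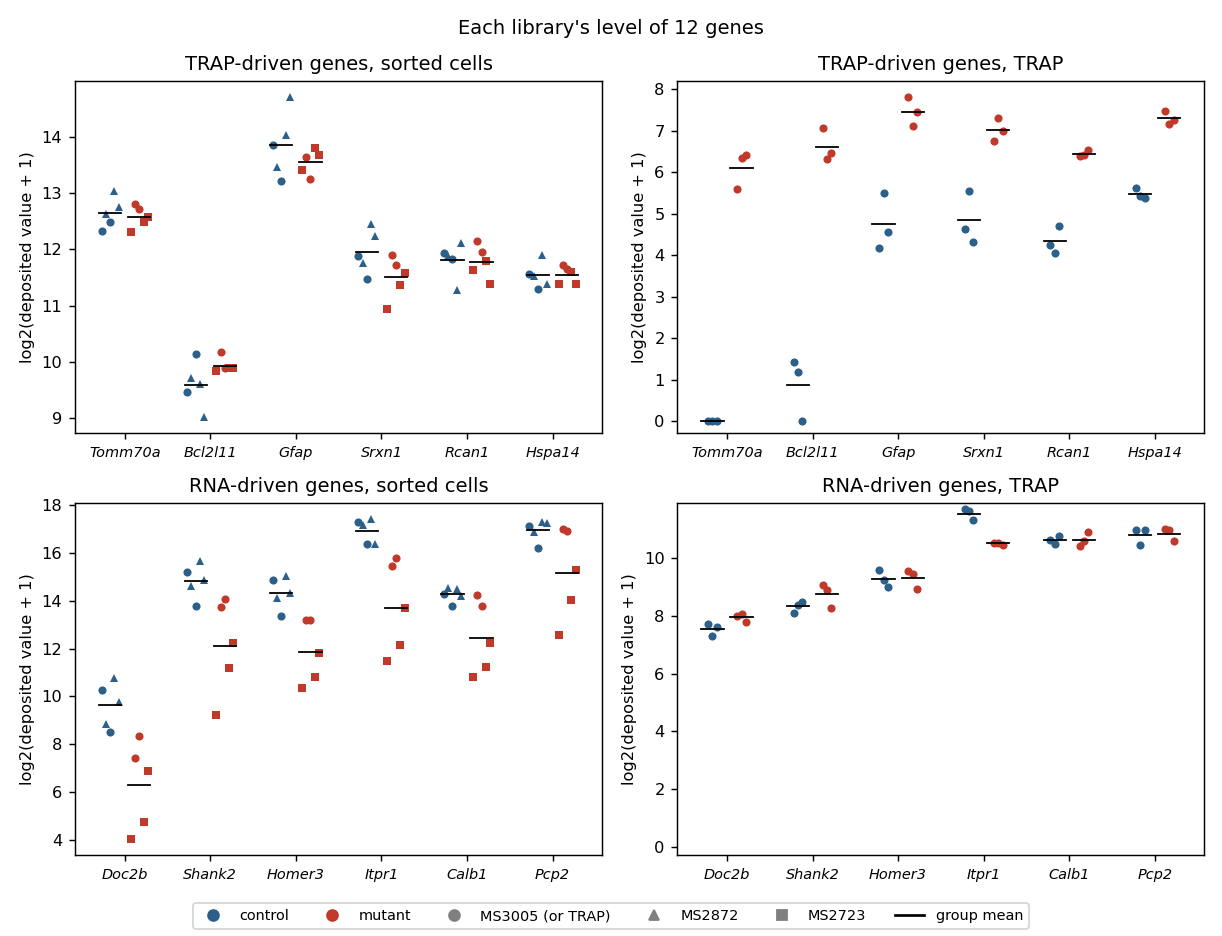
Each point is the log2(value + 1) of 1 library and each line a group mean, for 6 TRAP-driven genes (upper panels) and 6 RNA-driven genes (lower panels) in sorted cells and in TRAP; marker shapes give the library code of sorted libraries. The TRAP-driven genes separate the genotypes in TRAP only, and the RNA-driven genes separate mainly the MS2723 mutants in sorted cells.

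ΔTE fell at 5 loci. These calls held in 6 of 28 (Chst8) to 11 of 25 (Tnc) alternative fits, a range in which many of the rises also lay. Tnc encodes tenascin C, an extracellular matrix protein of glia (chromosome 4, 63959785 to 64047015, minus strand). Its sorted level was 13.90, 13.82, 14.68, 13.36 and 13.89 in controls 144a, 144b, 176, 45 and 48 and 15.85, 15.19, 14.65, 16.07 and 14.61 in mutants 103, 167, 191, 61 and 74. Mutants 191 and 74 lay within the range of the controls. In TRAP it was 4.03, 3.29 and 2.72 in controls and 1.57, 0.00 and 1.64 in mutants, on 0 to 18 fragments. Its TRAP mutant mean was under the filter, as were those of Amot and Asl below, so these loci were tested only through their controls. ΔTE of Tnc was -3.62 (SE 0.65, limma adjusted p = 0.0271), from an RNA term of 1.35 and a TRAP term of -2.28.

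The other falls were driven by TRAP. Tmem38b encodes a potassium channel of the endoplasmic reticulum that supports calcium release (chromosome 4, 53826045 to 53862019, plus strand). Its TRAP level was 8.58, 7.90 and 7.65 in controls and 6.96, 5.94 and 6.41 in mutants, and its sorted level was 10.65 ± 0.08 (SD, n = 5) over the control libraries, and 10.78 ± 0.14 (SD, n = 5) over the mutant libraries. ΔTE was -1.74 (SE 0.36, limma adjusted p = 0.0468). It was the best covered of the falls, with a mean of 261 TRAP fragments. Chst8, a sulfotransferase, was at -2.54, Amot, a scaffold of the Hippo pathway, at -2.28 and Asl, argininosuccinate lyase of the urea cycle, at -1.40, on means of 22.9, 14.2 and 7.50 fragments. Among named genes, the largest TRAP-driven decreases past the Z-score without a call were Dcaf17 (-2.90), Tcea2 (-2.86), a transcription elongation factor, and the noncoding RNA gene Dancr (-2.85). Cthrc1 (-2.68) and Pcgf1 (-2.25) were driven by both. The TRAP mutant means of Dcaf17, Tcea2, Cthrc1 and Pcgf1 were under the filter of 2. These loci were kept only through their controls, so a lower TRAP value in mutants was required. Ptch1 (-1.57), the receptor of sonic hedgehog, was driven by total RNA, which was higher mainly in the MS2723 mutants. Its sorted level was 14.93, 15.00 and 14.73 in mutants 103, 61 and 74. Within MS3005 it was 13.61 and 13.97 in mutants 167 and 191 and 13.84 and 13.29 in controls 144a and 176, which overlapped.

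Synaptic and calcium genes made up the other side of the data. Most had a high ΔTE through low total RNA in the mutants, and among them only the TRAP-driven Rcan1 and Tmem38b were called, against 0.437% of all loci and 4.5% of loci with a symbol. In the list of calcium release, buffering and sensing, which holds both calls, 22 of 23 measured genes were above 0 with a median ΔTE of 1.79, made of an RNA term of -1.44 and a TRAP term of 0.05. Total RNA drove 14 of them, TRAP 4 and both 5. Within MS3005 the median ΔTE was 0.23. In bulk samples, fewer cells of a type and less RNA per cell cannot be told apart.

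Itpr1 encodes the IP3 receptor that releases calcium from the endoplasmic reticulum of PCs (chromosome 6, 108213096 to 108551109, plus strand). Its sorted level was 17.30, 17.16, 16.36, 17.42 and 16.38 in controls 144a, 144b, 176, 45 and 48 and 11.48, 15.45, 15.77, 12.15 and 13.71 in mutants 103, 167, 191, 61 and 74. All mutants were below all controls, the 3 MS2723 mutants by far the most. In TRAP it was 11.70, 11.63 and 11.32 in controls and 10.53, 10.55 and 10.48 in mutants, so ribosome-bound RNA was lower as well. The high ΔTE of 2.18 (SE 1.07, limma adjusted p = 0.364) thus stood on an RNA term of -3.21 that exceeded the TRAP term of -1.03. Within MS3005 the RNA term was -1.21 and ΔTE 0.18.

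Camk2a, a calcium-dependent kinase of synapses, was similar, with a ΔTE of 2.69 from an RNA term of -3.23 and a TRAP term of -0.54, and 0.08 within MS3005. The calcium-binding protein genes Cabp1 and Cabp7 had values of 3.09 and 2.90, and Orai2, a subunit of store-operated calcium channels, one of 2.76. Within MS3005, Cabp1 and Orai2 were at 2.52 and 1.51, while Cabp7 was at 0.64. The TRAP groups of Cabp1 and Orai2 overlapped. Their TRAP controls held 3, 19 and 43 fragments for Cabp1 and 2, 5 and 35 for Orai2, so these values are uncertain.

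Postsynaptic receptors and scaffolds had the lowest RNA terms of the functional lists. Of 18 measured genes, none was called by limma, against 4.5% of loci with a symbol, and 12 had an unadjusted p under 0.05. ΔTE was above 0 at 14, and the median ΔTE was 2.12, from an RNA term of -1.96 and a TRAP term of 0.04. The median RNA term was -3.15 outside MS3005 and -0.46 within it, and the median ΔTE within it 0.55. Shank2, a scaffold of glutamatergic synapses, had TRAP levels of 8.12, 8.39 and 8.49 in controls and 9.07, 8.92 and 8.27 in mutants, which overlapped. Its ΔTE was 3.15 (SE 1.14, limma adjusted p = 0.232) and 1.01 within MS3005. Cnih2, an auxiliary subunit of AMPA receptors, was at 2.92.

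All 16 measured genes of GABA synthesis and the vesicle cycle were above 0, against 76.1% of loci with a symbol. None was called by limma, against 4.5%, and 13 had an unadjusted p under 0.05. The median ΔTE was 1.52, with an RNA term of -1.37 and a TRAP term of 0.40, and it was 0.69 within MS3005. Doc2b, a calcium sensor of vesicle release, led this list (chromosome 11, 75768966 to 75796049, minus strand). Its sorted level was 10.26, 8.85, 8.50, 10.78 and 9.77 in controls 144a, 144b, 176, 45 and 48 and 4.02, 7.43, 8.34, 4.74 and 6.87 in mutants 103, 167, 191, 61 and 74. The groups did not overlap, although mutant 191 lay just under control 176. In TRAP it was 7.73, 7.30 and 7.63 in controls and 8.01, 8.06 and 7.81 in mutants. ΔTE was 3.76 (SE 1.11, limma adjusted p = 0.182) and 1.90 within MS3005. Gad1, which makes GABA, was at 2.33 and Slc32a1, which loads it into vesicles, at 2.80, both with TRAP terms below 0. Rims4, an organiser of release sites, was at 3.15, with TRAP at 1.47.

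Of 12 measured ion channel genes, all were above 0, against 76.1% of loci with a symbol, and 5 had an unadjusted limma p under 0.05. None was called, against 4.5%, with a median ΔTE of 1.57 (0.59 within MS3005). The potassium channel subunit genes Kcnab2, Kcnmb4 and Kcnh2 were at 2.61, 2.01 and 1.68, each driven by total RNA. Cytoskeleton and transport genes were mixed, with 17 of 18 above 0, no call by limma against 4.5%, 16 unadjusted p under 0.05, and a median of 1.29 (0.75 within MS3005) that both terms carried. Kif17, a dendritic kinesin, was at 3.47 (RNA -2.35, TRAP 1.12) and at 2.58 within MS3005. Its TRAP groups overlapped, with 3, 40 and 26 fragments in the controls. Mapre1, a microtubule end-binding protein, was at 2.66 with nearly all of it from TRAP, and Nefl, the light neurofilament, at 2.57.

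**Figure D5:**
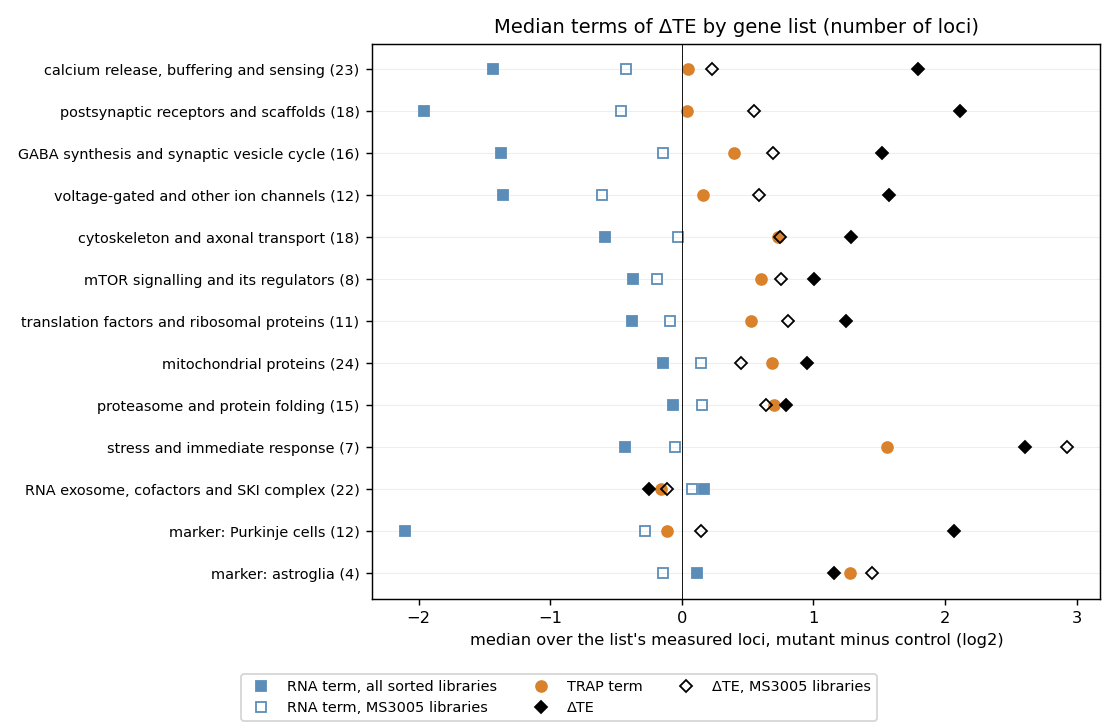
Each row is a gene list with the number of loci measured, and symbols give medians over the list of the RNA term, the TRAP term and ΔTE (log2), open symbols with the MS3005 sorted libraries only. The postsynaptic list moves from 2.12 to 0.55 in ΔTE when only MS3005 is used, and the stress list from 2.61 to 2.93.

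The PC markers themselves followed the synaptic genes. Of 12, none was called by limma, against 4.5% of loci with a symbol, and 3 had an unadjusted p under 0.05. ΔTE was above 0 at 11, and total RNA drove those 11. Their median ΔTE was 2.07 and their median RNA term -2.10, which was -3.33 outside MS3005 and -0.28 within it. Calb1, the calcium buffer calbindin, was at 1.79 and Pcp2, the gene whose promoter drives the transgenes, at 1.83, with TRAP terms of -0.01 and 0.04. Within MS3005 their ΔTE was 0.03 and -0.25. The summed level of the 12 markers was 378817 to 693078 in sorted controls and 54994 to 410006 in sorted mutants. The astroglial markers, in contrast, were at 320686 to 664635 in sorted controls and 459337 to 591389 in sorted mutants, so the sorted libraries held much RNA typical of astroglia in both genotypes. The part of PC number or purity in the RNA-driven increases was not tested. Homer3 (2.49), Rgs8 (2.67) and Slc1a6 (2.44) headed the markers, and Cdk16, a cyclin-dependent kinase outside the lists, had the same pattern at 1.16 (0.26 within MS3005).

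Some large RNA-driven increases past the Z-score rested on few TRAP fragments, although Doc2b did not. Tfap2b, a transcription factor of GABAergic progenitors, was at 4.83 on a mean of 9.79 fragments and Zfp526 at 4.22 on 7.83, and both had a sorted mutant listed at 0. Ntng1 (4.10), a netrin-like membrane protein, Net1 (4.04), a guanine nucleotide exchange factor, and Ppm1j (3.66) were driven by both terms. In TRAP, 2 controls of Ntng1 and 1 control of Net1 were at 0. The TRAP control means of Tfap2b, Zfp526, Ntng1 and Net1 were under the filter of 2. These genes were kept only through their mutants, so a higher TRAP value in mutants was required.

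The RNA exosome, which degrades RNA from the 3′ end, its cofactors and the SKI complex form a list that was chosen by function and not on ΔTE. All 22 of its genes were measured. None was called by limma, against 0.437% of all loci, and 5 had an unadjusted p under 0.05, against 14.5%. A further measure, the Z-score, was above 4 at 2 of 22, Exosc10 (-1.16) and Papd7 (-0.93), both lower. Over all loci, 8.41% were past it and 1.89% were past it and lower. The median ΔTE was -0.25, against 0.19 over all loci, with 9 above 0 and 13 below, and the median within MS3005 was -0.11. Exosc2 (-2.15), Zcchc7 (-1.70) and Exosc1 (1.63) were the farthest from 0, without a call. The TRAP mutant mean of Exosc2 and the TRAP control mean of Exosc1 were under the filter of 2, so each was kept only through the other genotype.

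Length and level also differed between the driver classes. The reference transcript of RNA-driven increases had a median length of 3419 bases (147 loci), that of TRAP-driven increases 2606 bases (199 loci), and that of all 869 named loci with a length 2893 bases. The RNA-driven increases were also better covered, with a median of 169 TRAP fragments per library against 36.7. Over all loci, a Z-score above 4 was reached by 4.52% of the 2344 loci lowest in TRAP and 16.5% of the 2344 highest, and the median RNA term went from 0.08 in the lowest to -0.25 in the highest. The named loci were selected, and no test of these differences was made.

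A few loci with an extreme ΔTE could not be read as genes. The loci that overlap Tbc1d23 (partial overlap) and E030025P04Rik (opposite strand) were at 0 in all TRAP controls and took 8.20% to 28.7% of the fragments in TRAP mutants together, and both were called. Aftph and Rbpms2, also called, overlap their genes on the opposite strand. The mitochondrial ribosomal RNA gene mt-Rnr2 was listed at 0 in all 5 sorted controls and 2 of 5 sorted mutants and at 19.5 to 20.0 on the log2 scale in the other mutants, and 2 unnamed loci with an absolute ΔTE above 8 had zeros beside high values in the same group.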

How the data were processed

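The authors trimmed reads (Trimmomatic 0.39), aligned them (STAR 2.7.0f, GRCm38) and assembled loci (Cufflinks 2.2.1). The deposited unit is a signal: estimated fragments per locus divided by 1 factor per library, with the sorted and TRAP tables scaled separately. The 6 TRAP columns with rapamycin were not used, nor were the authors' own fold changes and p-values in the supplements, which served only to pair loci with symbols. ΔTE was tested on log2(value + 1) with limma 3.58.1 (R 4.3.3) in a model of 4 groups, as the contrast of contrasts, with Benjamini-Hochberg adjustment and a threshold of 0.05, and the script was tested on simulated data. Python 3.11.15 and pandas 2.3.3 made the tables. One fragment was worth 0.303 to 1.96 units in TRAP libraries, so low TRAP values are imprecise. Controls 144a and 144b share a number and were also averaged.

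The members, lists and rules were chosen with earlier results of these data known. Genes named were all called loci of matching structure, the 3 largest ΔTE per direction and driver with a Z-score above 4, the 3 largest per list, loci beyond 8, and Shank2 and Cdk16. The remaining PC markers and Camk2a, Gad1, Rpl37, Rplp0, Rps16, Pabpc1, Exosc10, Papd7, Mt1, Psmd7, Psma6, Hspa5, Psmg4, Xbp1 and Aldoc were named after their values were seen. Some genes that these rules name are not reported here. Alternatives were other scalings, pseudocounts, filters, variance models, library codes, a replicate block and leaving out each library, with a minimum of 10 TRAP fragments added after seeing the data.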

Additional observations from a re-analysis of the deposited data

Results flagged for a closer look

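In 11 of 224 groups of 5 sorted libraries, the gap between the lowest or highest library and its nearest neighbour took up more of the group's range than Dixon's critical value of 0.71, where chance gives about 5%. Mutant 103 was the lowest for AC166344.3 (gap 0.759 of the range), Cabp1 (0.724), Gdap1 (0.817) and Lhx1 (0.742). Mutant 167 was the highest for Bcl2l11 (0.883), at a log2 level of 10.18 against 9.84 to 9.88 in the other mutants. Mutant 191 was listed at 0 for the unnamed locus XLOC_061638 (0.925), where the other mutants were at 18.46 to 19.96. Control 45 was the lowest for Tmem38b (0.758) and Apoe (0.735), control 144a for Hbs1l (0.778), and control 176 for Slc1a6 (0.795) and Gng13 (0.758). The reasons were not tested.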

How the results depend on the processing

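No call of a named gene reversed. Among genes named in the text without a call, ΔTE turned negative for Pcp2 (-0.25) and Gng13 (-0.013), each both with the library code as a term and with the MS3005 sorted libraries only. With any single library left out there were 11 to 284 calls, of which 53.6% to 100% were higher, 551 to 891 loci past the Z-score, of which 70.1% to 80.4% were higher, a median ΔTE of 0.15 to 0.23 and an RNA-driven share of 15.1% to 33.0%. The extremes of the calls were TRAP mutant 2 (11) and TRAP control 2 (284), and without TRAP mutant 3 there were 15 higher and 13 lower. Equal totals gave 10 calls (100% higher), 119 loci past the Z-score (90.8% higher), a median of 0.54 and an RNA-driven share of 23.2%. Quantile normalization gave a median of 0.14 and 72.4% higher past the Z-score. A pseudocount of 10 gave 10 calls (100% higher), a median of 0.10 and a share of 32.7%, and one of 0.1 a median of 0.24. With no filter there were 26 calls, 1733 loci past the Z-score (61.6% higher), a median of 0.048 and a share of 34.2%. The stricter filter gave 17 calls, 85.2% higher past the Z-score, a median of 0.21 and a share of 32.8%. There were 24 calls with an intensity trend, 8 (100% higher) with a variance factor per assay, 5 (100% higher, median 0.11) with the library code as a term and 13 (100% higher) with 144a and 144b averaged. MS3005 alone gave 6 calls, 225 loci past the Z-score (65.8% higher), a median of 0.11 and a share of 1.35%. The SE in place of the SD left 123 loci past the Z-score (80.5% higher), and driver shares of 0.6 and 0.8 gave 35.5% and 20.3%. TRAP replicate numbers are shared by label only (correlations of same-numbered deviations 0.011, -0.034 and 0.025, and not every library correlated best with its own number), and the replicate block gave 91 calls (73.6% higher), including all 41. With at least 10 fragments per TRAP library, chosen after seeing the data, 35 of 8159 loci were called. The Z-score has no value with the code as a term. The cause of these shifts was not tested. TRAP depth of 2.68 to 6.38 M fragments limits low loci.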
